A study of Homo sapiens with 4 samples.

Results

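Kinesins are the ATP-driven motor proteins that walk along microtubules or take them apart, and their genes carry the symbols KIF or KIFC followed by a number. The kinesin genes were taken by symbol from the 4 count tables of the study, which gave 44 entries and 42 genes of the 24462 genes in all, because KIFC1 is listed 3 times (2 of its entries hold 0 reads in every library). The members were sorted, with earlier results of these data known, into 14 mitotic kinesins, 15 transport kinesins and 13 others with mixed or less certain roles. The comparison asked of them is whether the motors of cell division and the motors of cargo transport responded alike when CDK4 and CDK6 were blocked.

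The study worked with HepG2, an established human liver cancer line that the paper describes as hepatocellular carcinoma. It sequenced 4 libraries with the QuantSeq 3′ mRNA kit, which reads each mRNA near its 3′ end. The cells had received DMSO, the solvent, or PD0332991, a CDK4/6 kinase inhibitor also known as palbociclib, or had been transfected with scrambled siRNA or with siRNAs against CDK4 and CDK6 (CDK4/6 KD). Each condition had 1 library, so condition, culture and library preparation cannot be told apart, and no statistical test across samples exists. The dose and duration of PD0332991 and the time after transfection are not given for these libraries in the sources used here.

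Mitotic kinesins build and slide the spindle, move chromosomes and separate the daughter cells at cytokinesis, and their genes are switched on late in the cell cycle. CDK4 and CDK6 phosphorylate the retinoblastoma protein, which lets E2F factors start S phase. The DREAM complex represses late cell cycle genes in resting cells through a promoter element called the CHR (cell cycle genes homology region). The CCAAT box, searched below as well, is a separate promoter element and not the site of that repression. Transport kinesins carry organelles, vesicles and ciliary cargo and work in dividing and resting cells alike.

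Promoter sequences are shown for 6 members on which the results below turn. RefSeq windows on GRCh38.p14, running from 250 bases before to 50 bases after the annotated transcription start, were found for 34 of the 42 kinesin genes (14 mitotic, 11 transport, 9 other). The CHR was searched as TTTGAA, a CHR variant as TTTAAA, the CCAAT box as CCAAT and an E2F site as TTCCCGC, each on both strands, with none of these words lying inside another. KIF23, KIF18B and KIFC1 were the lowest members after PD0332991, KIF2C the lowest mitotic member with at least 50 reads in CDK4/6 KD, KIF3B the lowest transport member there with as many reads, and KIF5B the single transport kinesin with a CHR. Capitals mark the matches, and every window is written 5′ to 3′ along its gene. KIF23 lies at chr15:69414099-69414398 (plus strand), KIF18B at chr17:44947724-44948023 (minus), KIFC1 at chr6:33391573-33391872 (plus), KIF2C at chr1:44739587-44739886 (plus), KIF3B at chr20:32277401-32277700 (plus) and KIF5B at chr10:32056376-32056675 (minus).
KIF23: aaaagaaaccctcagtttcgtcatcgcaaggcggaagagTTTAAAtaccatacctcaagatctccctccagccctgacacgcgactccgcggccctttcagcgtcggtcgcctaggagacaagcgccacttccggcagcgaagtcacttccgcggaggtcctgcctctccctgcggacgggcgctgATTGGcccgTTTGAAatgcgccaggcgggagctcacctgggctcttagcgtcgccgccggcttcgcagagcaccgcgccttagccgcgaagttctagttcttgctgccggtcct
KIF18B: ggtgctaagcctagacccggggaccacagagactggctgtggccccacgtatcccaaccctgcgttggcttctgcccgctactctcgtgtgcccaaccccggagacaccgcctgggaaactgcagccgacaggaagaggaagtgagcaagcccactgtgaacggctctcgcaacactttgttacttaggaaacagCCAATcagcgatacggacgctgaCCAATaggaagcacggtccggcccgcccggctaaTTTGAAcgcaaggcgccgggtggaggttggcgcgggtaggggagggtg
KIFC1: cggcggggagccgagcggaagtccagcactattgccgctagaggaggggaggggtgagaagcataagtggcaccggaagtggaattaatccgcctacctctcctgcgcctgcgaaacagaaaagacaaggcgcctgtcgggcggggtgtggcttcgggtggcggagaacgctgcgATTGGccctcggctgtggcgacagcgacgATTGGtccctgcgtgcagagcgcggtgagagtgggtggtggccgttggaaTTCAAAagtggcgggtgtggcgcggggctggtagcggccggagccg
KIF2C: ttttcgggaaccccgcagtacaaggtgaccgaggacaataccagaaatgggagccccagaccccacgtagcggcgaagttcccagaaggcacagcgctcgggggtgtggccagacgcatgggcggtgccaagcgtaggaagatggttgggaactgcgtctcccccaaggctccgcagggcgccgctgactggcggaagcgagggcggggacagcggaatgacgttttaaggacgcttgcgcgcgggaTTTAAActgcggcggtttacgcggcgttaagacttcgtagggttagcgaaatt
KIF3B: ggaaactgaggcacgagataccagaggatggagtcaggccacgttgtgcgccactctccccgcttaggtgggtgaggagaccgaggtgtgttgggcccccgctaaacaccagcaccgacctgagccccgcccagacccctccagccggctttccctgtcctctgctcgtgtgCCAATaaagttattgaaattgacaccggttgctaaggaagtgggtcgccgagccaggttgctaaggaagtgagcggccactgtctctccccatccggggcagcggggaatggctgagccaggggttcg
KIF5B: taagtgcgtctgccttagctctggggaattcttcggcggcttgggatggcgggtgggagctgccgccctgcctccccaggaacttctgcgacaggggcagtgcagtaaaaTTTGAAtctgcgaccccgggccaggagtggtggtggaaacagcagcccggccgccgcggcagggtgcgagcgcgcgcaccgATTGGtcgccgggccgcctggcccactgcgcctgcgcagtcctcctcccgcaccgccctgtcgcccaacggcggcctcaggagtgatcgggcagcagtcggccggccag

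Mitotic kinesin genes held the CHR more often than genes in general. Genes were counted, and a gene with several windows counted if any of them matched. TTTGAA was present in 10 of the 14 mitotic genes (71.4%), in 1 of 11 transport genes (9.09%), in 0 of 9 other kinesins and in 18.2% of all 27305 genes with a window. CCAAT was present in 11 of 14 mitotic genes (78.6%), 4 of 11 transport genes (36.4%), 3 of 9 others and 39.7% of all genes. Both words together stood in 9 of 14 mitotic genes (64.3%), in the KIF5B window among transport kinesins, and in 8.37% of all genes. The 3 mitotic promoters printed above with both words are KIF23, KIF18B and KIFC1, whereas KIF2C holds neither and KIF3B holds CCAAT alone. The TTTAAA variant, added after it was seen that KIF2C and KIF20A lack TTTGAA, was found in KIF2C, KIF20A, KIF14 and KIF23, in 1 of 11 transport genes (KIF16B) and in 14.5% of all genes. Either form was present in 12 of 14 mitotic genes (85.7%) against 2 of 11 transport genes and 27.9% of all genes. The E2F word was in 0 of 14 mitotic genes, 2 of 11 transport genes, 1 of 9 others and 7.82% of all genes. A match is a stretch of letters in the window and does not show that a factor binds there.

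**Figure D1:**
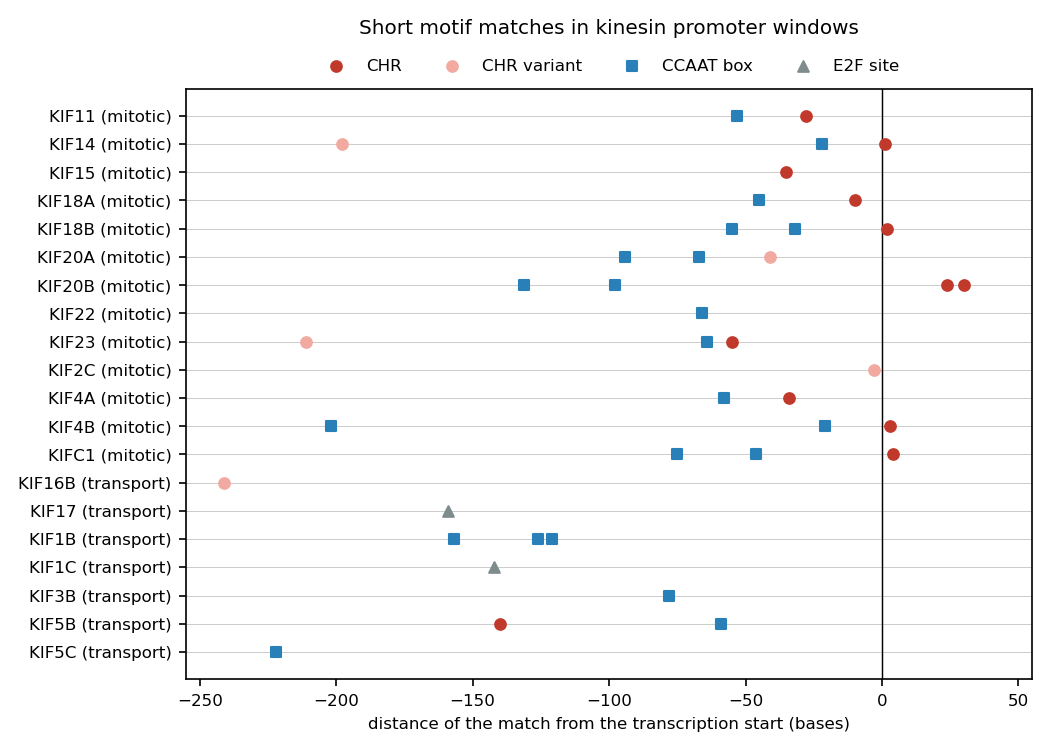
Matches to 4 short words in the RefSeq promoter windows of the mitotic and transport kinesins that hold at least 1 of them, 1 gene per line, against the distance in bases from the annotated transcription start (0). In mitotic kinesins the CHR matches lie between -55 and 30 bases (median 1) and the CCAAT matches between -202 and -21 (median -61), while the single transport CHR, that of KIF5B, lies at -140.

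The libraries held between 8983848 and 11176880 reads. Levels below are TMM-normalized CPM (counts scaled to a common library size), fold changes are ratios of these levels with 0.5 reads added, and each interval is a 95% exact binomial interval on the split of reads between 2 libraries. Intervals cover counting error only, since PCR copies were not marked and cultures were not repeated. The siRNA targets were lower in CDK4/6 KD than with scrambled siRNA (CDK4 fold change: 0.203, CDK6 fold change: 0.241). All 12 hepatocyte markers were expressed in every library, at summed levels of 20680 to 27102 CPM. Endothelial markers were at 4 or 5 reads per library, with CDH5 and KDR at 0 in all. The 5 leukocyte markers summed to 13.1 CPM with DMSO, 17.4 with PD0332991, 14.1 with scrambled siRNA and 9.72 in CDK4/6 KD. Of these, 3 had enough reads to be tested, while CD3E was at 0 in all libraries and PTPRC at 0 to 2 reads. The 8 keratinocyte markers summed to 202 CPM with DMSO, 196 with PD0332991, 361 with scrambled siRNA and 202 in CDK4/6 KD, sums led by SFN and KRT10. Of the 5 tested after PD0332991, 3 were at least 2-fold higher (7.49% of genes) and 1 was at least 2-fold lower (0.463, 7.06% of genes). The higher ones were KRT5 with 113 reads against 2, KRT14 with 249 against 9 and KRT6A with 150 against 9. The list median fold change was 15.9, and TP63 was at 0 or 1 read in all libraries. The 6 fibroblast markers summed to 48.3, 78.9, 8.60 and 22.7 CPM in the same order, led by the collagen gene COL1A1. Between the control libraries, 4 of the 4 tested were at least 2-fold lower with scrambled siRNA than with DMSO (6.64% of genes). After PD0332991, 2 of 5 tested were at least 2-fold higher (7.49% of genes) and 0 were at least 2-fold lower (7.06% of genes). The part of these markers in the kinesin results was not tested.

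Of the 42 kinesin genes, 30 had at least 50 reads in some library, 5 more had at least 10, 3 (KIF6, KIF21B and KIF26B) stayed under 10, and 4 had 0 reads in all libraries (KIF2B, KIF19, KIF25 and KIF26A), which allows up to 3 reads per library. KIF2B, a relative of KIF2C, was thus the 1 mitotic member not seen. The other 13 mitotic kinesins had at least 10 reads in each of the 4 libraries, so none entered the comparisons through a single library. Among transport kinesins, 4 (KIF1A, KIF5A, KIF5C and KIF17), best known from neurons and cilia, never reached 50 reads.

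The mitotic kinesins made up less of the kinesin reads in both treated libraries. They took 33.9% of kinesin reads with DMSO (95% exact interval 33.3 to 34.6) and 7.53% with PD0332991 (7.10 to 7.98). With scrambled siRNA the share was 24.3% (23.8 to 24.9), and in CDK4/6 KD it was 15.6% (15.1 to 16.1). Summed mitotic levels were 794 CPM with DMSO, 118 with PD0332991, 521 with scrambled siRNA and 277 in CDK4/6 KD. Summed transport levels stayed between 1234 and 1344 CPM, and the other kinesins between 209 and 275 CPM. The control libraries thus already differed in their mitotic share, DMSO being the higher.

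**Figure D2:**
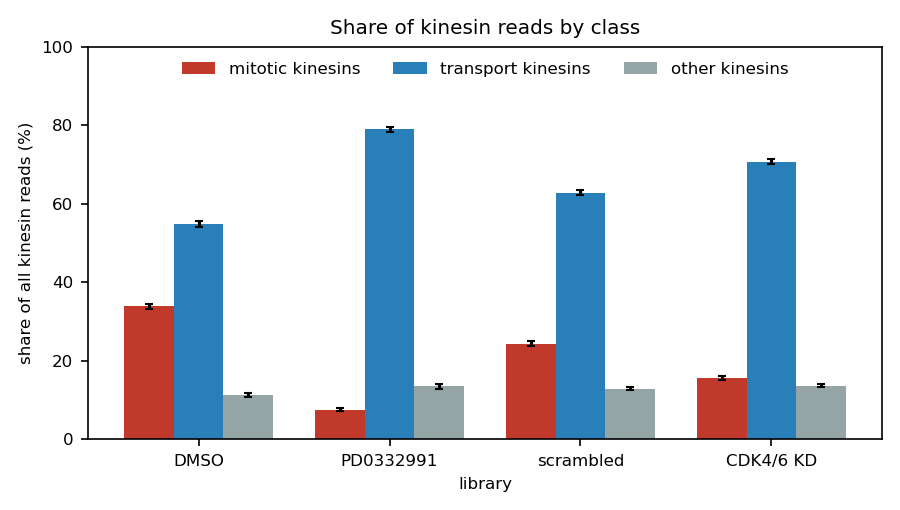
Share of all kinesin reads (%) taken by mitotic, transport and other kinesins in each library, with 95% exact binomial intervals as error bars and 1 library per condition. The mitotic bars stand at 33.9% (DMSO), 7.53% (PD0332991), 24.3% (scrambled) and 15.6% (CDK4/6 KD), and the transport bars at 54.9%, 79.1%, 62.8% and 70.8%.

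After PD0332991, every mitotic kinesin measured was lower than with DMSO, from 0.0599 for KIF23 to 0.236 for KIF22. All 13 were at least 2-fold lower, against 7.06% of the 13443 genes tested, and for all 13 the whole interval lay past 2-fold (3.38% of genes). Their median log2 fold change was -2.93, beside 0.02 over all genes. In CDK4/6 KD, all 13 were also lower than with scrambled siRNA, but by less: 5 (KIF2C, KIFC1, KIF23, KIF15 and KIF14) were at least 2-fold lower (7.62% of the 13617 genes tested), 11 had an interval wholly below 1 (31.9% of genes), and 2 (KIF2C and KIFC1) had the whole interval past 2-fold (3.22%). The median log2 fold change there was -0.81, beside -0.0036 over all genes.

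The spindle assembly motors were as follows. KIF11 (Eg5), the bipolar motor that pushes spindle poles apart, stood at 38.6 CPM with DMSO, 3.95 with PD0332991, 13.5 with scrambled siRNA and 8.75 in CDK4/6 KD. Its DMSO level was far above the other 3, and its fold change was 0.104 with PD0332991 (0.071 to 0.144) and 0.651 in CDK4/6 KD (0.498 to 0.845). KIF15, which holds the poles apart alongside KIF11, read 44.9 CPM with DMSO, 5.27 with PD0332991, 39.3 with scrambled siRNA and 19.4 in CDK4/6 KD. For this gene the control libraries lay close together (scrambled against DMSO: 0.877, interval 0.764 to 1.007), and the fold changes were 0.119 and 0.495. KIF11 reads per KIF15 read accordingly went from 0.861 with DMSO (0.745 to 0.995) to 0.342 with scrambled siRNA (0.281 to 0.414), and were 0.750 with PD0332991 and 0.450 in CDK4/6 KD. KIFC1 (HSET), the minus-end motor that focuses spindle poles and clusters extra centrosomes, had 83.6 CPM with DMSO, 7.58 with PD0332991, 50.2 with scrambled siRNA and 19.8 in CDK4/6 KD. Among members with at least 50 reads it was 1 of the 3 lowest in both arms, with fold changes of 0.0912 (0.070 to 0.116) and 0.395 (0.336 to 0.462).

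Motors that act on chromosomes and microtubule ends came next. KIF2C (MCAK), which depolymerizes microtubules at centromeres and so corrects wrong attachments, had 69.5 CPM with DMSO, 7.36 with PD0332991, 56.9 with scrambled siRNA and 22.1 in CDK4/6 KD. Both treated libraries lay below both controls, with fold changes of 0.107 (0.081 to 0.136) and 0.389 (0.334 to 0.450). KIF18A, which damps chromosome oscillations at metaphase, was counted 76 times with DMSO, 14 with PD0332991, 39 with scrambled siRNA and 37 in CDK4/6 KD. Its ratio of 0.898 in CDK4/6 KD was the smallest shift of the class and its interval held 1 (0.556 to 1.44), while that with PD0332991 was 0.190. KIF18B, which limits astral microtubules, stood at 33.8 CPM with DMSO, 2.75 with PD0332991, 13.6 with scrambled siRNA and 7.86 in CDK4/6 KD. Its fold changes were 0.0827 (0.052 to 0.122) and 0.582 (0.441 to 0.761), the former the second lowest of all members. KIF22 (Kid), a chromokinesin that pushes chromosome arms, went from 61.5 CPM with DMSO to 14.5 with PD0332991 and from 49.3 with scrambled siRNA to 28.2 in CDK4/6 KD. At 0.236 (0.193 to 0.285) it was the least reduced mitotic member after PD0332991, and in CDK4/6 KD it was at the class median (0.572).

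KIF4A, a chromokinesin that sets the length of the central spindle, had 77.3 CPM with DMSO, 10.1 with PD0332991, 54.9 with scrambled siRNA and 37.2 in CDK4/6 KD. Its fold changes were 0.131 (0.104 to 0.163) and 0.678 (0.597 to 0.770). KIF4B is a copy of KIF4A without introns, on chromosome 5 (chr5:155013755-155018132, GRCh38) instead of X (chrX:70290090-70420832), and their transcripts were 95.3% identical over 4359 aligned bases. Because reads of such a pair can be assigned to either copy, the KIF4B values are uncertain, though KIF4B is counted as a separate member throughout. Within the last 500 bases, near where these libraries read, the search found no match between the copies of at least 95% identity over 75 bases. KIF4B had 67 reads with DMSO, 11 with PD0332991, 55 with scrambled siRNA and 38 in CDK4/6 KD. KIF4A reads per KIF4B read were 10.5, 8.36, 10.7 and 11.1 in that order, with intervals that all overlapped.

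The cytokinesis motors held the most reduced member of all. KIF23 (MKLP1), the motor of the centralspindlin complex, was counted 259 times with DMSO and 15 times with PD0332991, and 231 times with scrambled siRNA and 114 times in CDK4/6 KD. In CPM these were 28.3, 1.65, 21.6 and 10.1, and the fold changes were 0.0599 (0.032 to 0.098) and 0.468 (0.369 to 0.586). KIF20A (MKLP2), which brings the chromosomal passenger complex to the central spindle, stood at 62.3 CPM with DMSO, 9.01 with PD0332991, 28.8 with scrambled siRNA and 22.4 in CDK4/6 KD. The scrambled and CDK4/6 KD libraries lay close together for KIF20A (fold change: 0.777, interval 0.655 to 0.920), and that with PD0332991 was 0.145 (0.113 to 0.183). KIF20A and KIF23 therefore moved apart: there were 2.20 KIF20A reads per KIF23 read with DMSO (1.89 to 2.55), 5.47 with PD0332991 (3.13 to 10.2), 1.33 with scrambled siRNA (1.12 to 1.59) and 2.22 in CDK4/6 KD (1.77 to 2.79). KIF20B (MPP1), a motor of late cytokinesis, had 244 CPM with DMSO, 47.8 with PD0332991, 165 with scrambled siRNA and 85.3 in CDK4/6 KD (fold changes: 0.196 and 0.518). KIF14, which acts with citron kinase, had 34.5, 4.83, 19.2 and 9.45 CPM in the same order (fold changes: 0.142 and 0.495).

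The 13 mitotic kinesins fell into the same order of libraries, DMSO highest, then scrambled siRNA, then CDK4/6 KD, and PD0332991 lowest, an order seen in 6.19% of the 13961 genes with at least 10 reads in some library. In the transport class 1 of 15 members (KIF5B) had this order, and 0 of the 7 other kinesins. Neighbours in the order were not always apart: 11 of 13 intervals between DMSO and scrambled siRNA lay below 1 (28% of all genes, KIF15 and KIF4B being the exceptions), 11 of 13 between scrambled siRNA and CDK4/6 KD (KIF4B and KIF18A the exceptions), and 13 of 13 between CDK4/6 KD and PD0332991 (29.4% of all genes). The gap between the control libraries reached 2-fold for 4 members (KIF11, KIF18B, KIF18A and KIF20A, fold changes 0.349 to 0.463) against 6.64% of genes, and the mitotic median log2 difference between them was -0.57. The same library serves in more than 1 of these steps, so they are not independent.

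**Figure D3:**
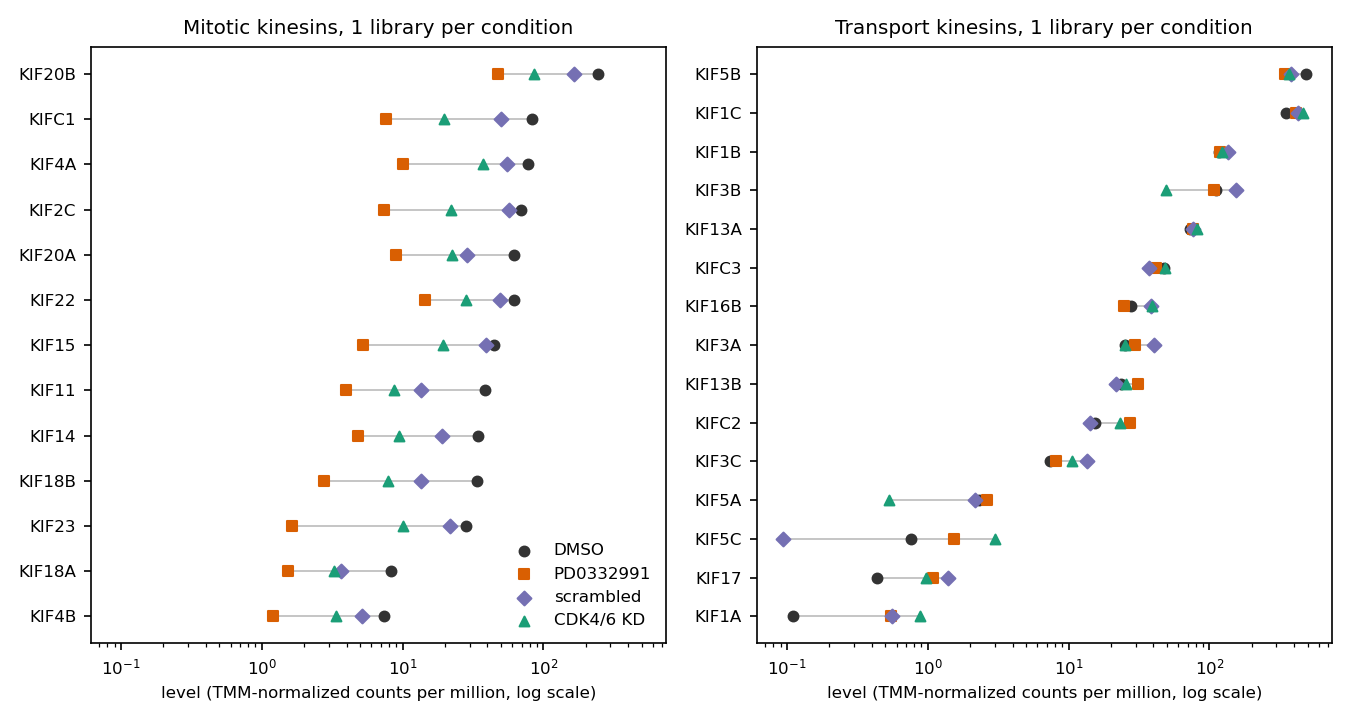
Level of each mitotic kinesin with reads (left) and each transport kinesin (right) in TMM-normalized CPM on a log axis, with 1 point per library and genes in order of level. On the left every line runs from the orange square of PD0332991 through CDK4/6 KD and scrambled siRNA to DMSO, while on the right the order of the libraries varies from gene to gene, KIF3B is low in CDK4/6 KD (48.9 CPM), and the low-count KIF1A, KIF5A, KIF5C and KIF17 are widely spread.

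Side by side, the PD0332991 interval lay below the CDK4/6 KD interval for 13 of 13 mitotic, 2 of 14 transport and 2 of 7 other kinesins. It lay above for 3 transport kinesins, and the share over all genes was not counted. For the mitotic kinesins the CDK4/6 KD fold change was 2.42 to 7.80 times the PD0332991 fold change (median 4.33). The 2 arms have separate control libraries, and the higher mitotic level with DMSO enters this difference. Set directly against CDK4/6 KD, with no control between them, PD0332991 was at least 2-fold lower for 10 of 13 (6.65% of genes), from 0.168 for KIF23 to 0.560 for KIF20B, with a median log2 difference of -1.38. Set against the control of the other arm, CDK4/6 KD was at least 2-fold below DMSO for all 13 (8.16% of genes), as was PD0332991 below scrambled siRNA (8.17% of genes). The direct comparison of PD0332991 with CDK4/6 KD was added after the data had been seen.

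Transport kinesins did not move as a class. In CDK4/6 KD, 7 of 15 were below 1 (50.3% of genes), 2 (KIF5A and KIF3B) were at least 2-fold lower (7.62% of genes), 1 (KIF5C) was at least 2-fold higher (9.19% of genes), and the median log2 fold change was 0.02. After PD0332991, 14 were tested, 4 were below 1 (48.4% of genes), 0 were at least 2-fold lower (7.06% of genes), 1 (KIF17, 10 reads against 4) was at least 2-fold higher (7.49% of genes), and the median was 0.17. The mitotic minus the transport median was -3.10 log2 units with PD0332991 and -0.83 in CDK4/6 KD. Intervals wholly below 1 were found for 4 transport members in CDK4/6 KD (31.9% of genes) and 1 with PD0332991 (28.6%), and wholly above 1 for 4 (30%) and 3 (28.1%). With PD0332991 the classes did not overlap, the highest mitotic fold change (KIF22, 0.236) lying below the lowest transport one (KIF5B, 0.714), whereas in CDK4/6 KD they did overlap and 10 of 15 transport members were above every mitotic one. The classes were chosen with earlier results of these data known. KIF2A, which works at spindle poles as well as in neurons, was placed among the others. At 0.728 with PD0332991 it was above KIF5B, so the gap between the classes rests on that placing.

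**Figure D4:**
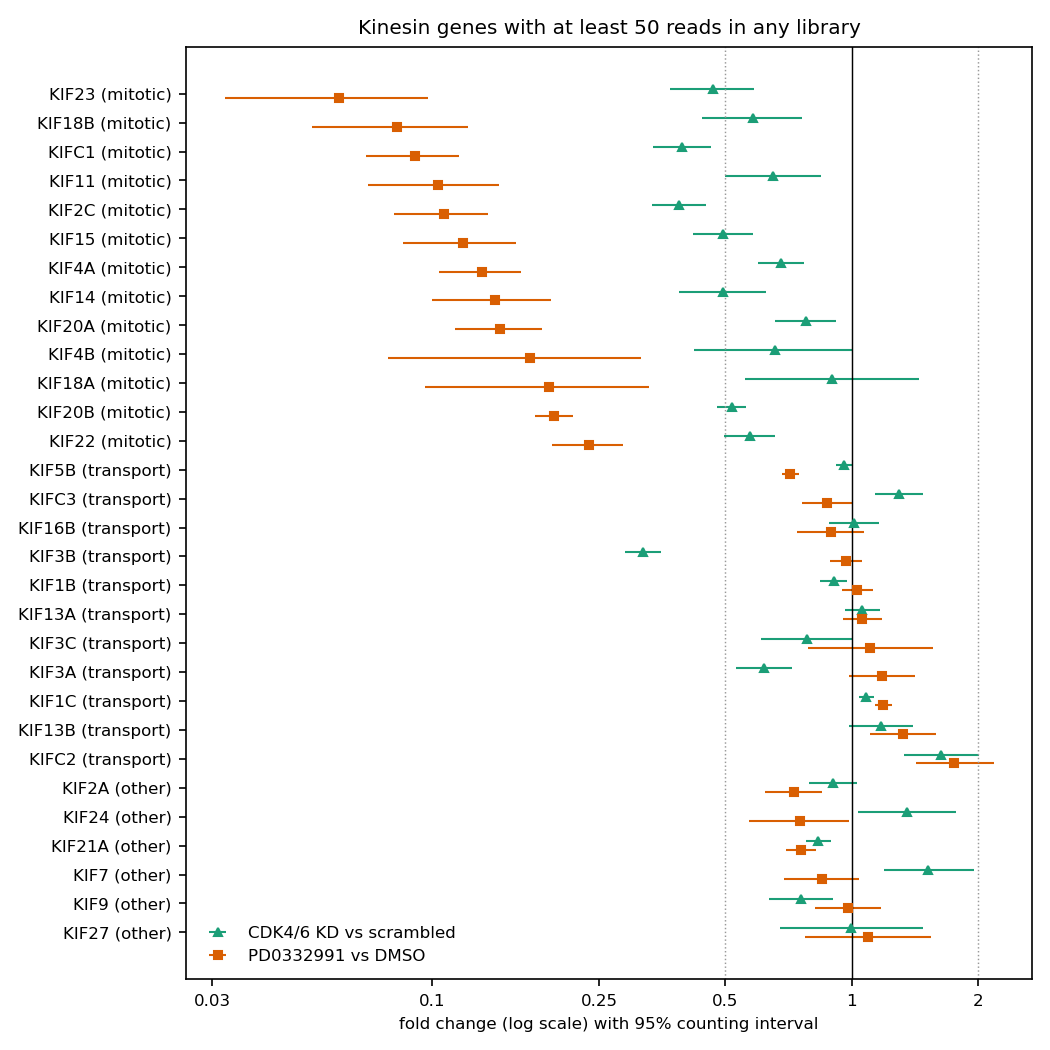
Fold change of the 30 kinesin genes with at least 50 reads in some library, on a log axis, with 95% counting intervals as bars, for CDK4/6 KD against scrambled siRNA (green triangles) and PD0332991 against DMSO (orange squares). The orange mitotic points lie between 0.0599 and 0.236, the green ones between 0.389 and 0.898, and transport members spread around 1 in both arms apart from KIF3B at 0.319 in CDK4/6 KD.

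Kinesin-1 carries vesicles, mitochondria and mRNA granules. KIF5B, its ubiquitous heavy chain, stood at 485 CPM with DMSO, 346 with PD0332991, 383 with scrambled siRNA and 367 in CDK4/6 KD. The DMSO library was the high one, and the fold changes were 0.714 with PD0332991 (0.682 to 0.747) and 0.958 in CDK4/6 KD (0.918 to 1.001, with 1.03 when libraries were scaled by total counts). The neuronal heavy chains were near the limit of counting. KIF5A had 21 reads with DMSO, 24 with PD0332991, 23 with scrambled siRNA and 6 in CDK4/6 KD, which gives 0.262 for the siRNA arm (0.082 to 0.623). KIF5C had 7, 14, 1 and 34 reads in the same order, so that 34 reads stood against 1 in the siRNA arm, a ratio of 21.96 whose interval ran from 5.39 to 1306 and which is 10.7 when the scrambled count is set to the floor of 3 reads.

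The kinesin-2 motor of intraflagellar transport, which builds the primary cilium, is made of KIF3A, KIF3B and the adaptor KIFAP3, and KIF3C can take the place of KIF3B. KIF3B was the transport member that stood apart: it had 112 CPM with DMSO, 108 with PD0332991, 154 with scrambled siRNA and 48.9 in CDK4/6 KD. The CDK4/6 KD library was below the other 3, at a fold change of 0.319 (0.289 to 0.351), lower than that of any mitotic kinesin, while with PD0332991 it was 0.969 (0.887 to 1.06). Against DMSO in place of scrambled siRNA, KIF3B in CDK4/6 KD was 0.439. KIF3A had 25.2 CPM with DMSO, 29.8 with PD0332991, 40.7 with scrambled siRNA and 25.2 in CDK4/6 KD. For KIF3A the scrambled library was the high one, so that the fold change of 0.618 in CDK4/6 KD (0.530 to 0.719) became 1.00 against DMSO, and with PD0332991 it was 1.18 (0.988 to 1.42). KIF3A reads per KIF3B read were 0.226 with DMSO, 0.275 with PD0332991 and 0.265 with scrambled siRNA, and 0.514 in CDK4/6 KD (0.444 to 0.595), outside the intervals of the other 3. KIF3C had 7.33, 8.13, 13.5 and 10.5 CPM in the order DMSO, PD0332991, scrambled siRNA and CDK4/6 KD (fold changes: 1.11 with PD0332991 and 0.782 in CDK4/6 KD, both intervals holding 1). KIFAP3, not a kinesin by symbol, had 7.33, 11.4, 8.50 and 9.54 CPM in that order, with fold changes of 1.55 (1.13 to 2.15) with PD0332991 and 1.12 in CDK4/6 KD, where the interval held 1.

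**Figure D5:**
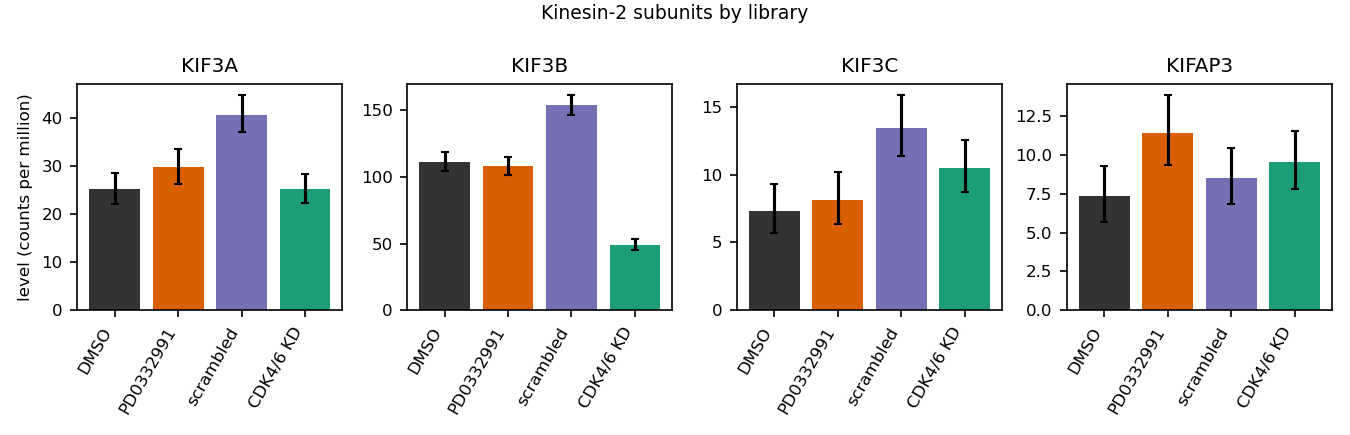
Levels of the kinesin-2 subunits KIF3A, KIF3B, KIF3C and KIFAP3 in the 4 libraries, in TMM-normalized CPM from 0, with 95% Poisson counting intervals as error bars. KIF3B in CDK4/6 KD stands at 48.9 CPM against 108 to 154 in the other libraries, while KIF3A is 25.2 in both DMSO and CDK4/6 KD.

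The kinesin-3 motors carry membrane cargo over long distances. KIF1B, which carries mitochondria and synaptic vesicle precursors, had 116 CPM with DMSO, 120 with PD0332991, 137 with scrambled siRNA and 124 in CDK4/6 KD. Its libraries lay within a narrow range, with fold changes of 1.03 (0.947 to 1.12) and 0.907 (0.842 to 0.976). KIF1C, which carries dense core and integrin vesicles, had 348, 414, 424 and 460 CPM in the same order, so that DMSO was the low library (fold changes: 1.19, interval 1.13 to 1.25, with PD0332991, and 1.08, interval 1.04 to 1.13, in CDK4/6 KD). Among the endosomal carriers, KIF13A had 72.8, 77.1, 76.7 and 81.3 CPM and KIF16B 27.7, 24.7, 38.5 and 39.0 CPM. For KIF16B the transfected libraries were the higher pair and the fold changes within the arms were 0.893 and 1.01. KIF13B had 23.4, 31.1, 21.8 and 25.5 CPM (fold changes: 1.33, interval 1.11 to 1.59, with PD0332991, and 1.17 in CDK4/6 KD). KIF1A was at 1 to 10 reads.

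Of the minus-end motors of the transport class, KIFC2, known from neurons, was higher in both treated libraries. It had 15.5 CPM with DMSO, 27.3 with PD0332991, 14.1 with scrambled siRNA and 23.1 in CDK4/6 KD. These fold changes, 1.76 (1.43 to 2.18) and 1.63 (1.33 to 2.01), were the highest of the members with at least 50 reads in both arms. All 500 bases at the 3′ end of KIFC2 overlap FOXH1 on the opposite strand, and whether the counting used strand is not stated, so reads of the 2 genes cannot be told apart. KIFC3, which serves cell junctions and apical vesicles, had 47.7, 41.7, 37.1 and 48.1 CPM in the order DMSO, PD0332991, scrambled siRNA and CDK4/6 KD. Its CDK4/6 KD library was above scrambled siRNA (1.30, interval 1.14 to 1.48), while the interval with PD0332991 held 1 (fold change: 0.875).

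For the remaining kinesins the median log2 value was -0.15 in the siRNA arm and -0.24 with PD0332991 over 7 tested members. None of the 7 was past 2-fold in either arm, where 7.62% (lower) and 9.19% (higher) of all genes were in CDK4/6 KD and 7.06% and 7.49% with PD0332991, so this count is near that of genes in general. KIF21A, which restrains microtubule growth at the cell cortex, was at 0.833 in CDK4/6 KD (0.780 to 0.891) and 0.757 with PD0332991. KIF2A, the relative of KIF2C that works in neurons and at spindle poles, was at 0.902 and 0.728. KIF7, a regulator of Hedgehog signalling at the ciliary tip, had 212 reads with DMSO, 179 with PD0332991, 109 with scrambled siRNA and 176 in CDK4/6 KD, so that the scrambled library was the low one. Its fold change in CDK4/6 KD was 1.52 (1.20 to 1.96) against scrambled siRNA and 0.671 against DMSO, and 0.848 with PD0332991. KIF24, which restrains cilium outgrowth, had 13.9 CPM with DMSO, 10.4 with PD0332991, 9.07 with scrambled siRNA and 12.3 in CDK4/6 KD (fold changes: 0.752, interval 0.569 to 0.987, with PD0332991, and 1.35, interval 1.04 to 1.77, in CDK4/6 KD). KIF9, a motor of motile cilia, was at 0.759 in CDK4/6 KD (0.637 to 0.902) and 0.979 with PD0332991, KIF27 at 0.998 and 1.09, and KIF12 (21 to 41 reads) at 0.740 and 1.00. Ends of KIF7, KIF24, KIF27, KIF20A, KIF22, KIF13B and KIF3A also overlap genes on the opposite strand, by 7 to 298 bases of the last 500.

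Known partners of the motors were counted by the same classes. Of 10 partners of mitotic kinesins, 10 were lower with PD0332991 (48.4% of all genes), 8 of them at least 2-fold (7.06% of genes), at a median log2 fold change of -2.68. In CDK4/6 KD 9 were lower (50.3% of genes), 4 of them at least 2-fold (7.62% of genes), at a median of -0.84. RACGAP1, which forms centralspindlin with KIF23, was at 0.0984 with PD0332991 and 0.586 in CDK4/6 KD. CENPE, the kinetochore kinesin that carries no KIF symbol, was at 0.0740 and 0.750. ECT2, which centralspindlin recruits to start the cleavage furrow, was at 0.123 and 0.385, and HMMR, a spindle pole protein, at 0.169 and 0.397. The exception in CDK4/6 KD was PRC1, the central spindle bundler that KIF4A binds, named after its value was seen (1.07, interval 0.953 to 1.21, and 0.154 with PD0332991). Of 27 listed partners of transport kinesins, such as kinesin light chains and intraflagellar transport proteins, 25 were tested. Their medians were 0.04 in CDK4/6 KD and -0.087 with PD0332991, and 0 were at least 2-fold lower in either arm (7.62% and 7.06% of genes). At least 2-fold higher were 3 in CDK4/6 KD (9.19% of genes) and 2 with PD0332991 (7.49% of genes), so these counts are near those of genes in general. The 3 in CDK4/6 KD included MAPK8IP2 (2.12, 68 reads against 30) and MAPK8IP1 (43 reads against 19). The 2 with PD0332991 were MAPK8IP3, a JNK scaffold that binds kinesin-1 (2.12), and MAPK8IP1 (28 reads against 10). MAPK8IP1 was named after its values were seen. Cytoplasmic dynein and dynactin, the main minus-end machinery of interphase cells, had medians of -0.20 in CDK4/6 KD and -0.01 with PD0332991 over 25 genes, with DCTN6 alone at least 2-fold lower, in CDK4/6 KD (0.362, interval 0.262 to 0.489, against 7.62% of all genes). BICD1, a dynein adaptor named after its value was seen, was the single member at least 2-fold higher, with PD0332991 (4.48, interval 2.06 to 12.7, 33 reads against 7), against 7.49% of all genes.

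General proliferation markers moved with the mitotic kinesins. All 12, among them MKI67 and TOP2A, were lower with PD0332991 (48.4% of genes) and in CDK4/6 KD (50.3% of genes). Their median log2 fold changes were -2.97 with PD0332991 and -1.05 in CDK4/6 KD, and -0.50 between scrambled siRNA and DMSO. Their summed level was 5095 CPM with DMSO, 674 with PD0332991, 3686 with scrambled siRNA and 1632 in CDK4/6 KD, the same order as the mitotic kinesins. In bulk RNA, fewer cells in division and less kinesin RNA per dividing cell cannot be told apart, and the part of the cell cycle markers in the kinesin differences was not tested.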

How the data were processed

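Total RNA of 4 HepG2 cultures (1 library per condition) was sequenced by the authors with QuantSeq 3′ mRNA-Seq. What the authors deposited are raw counts of reads, 1 table per library, listed by gene symbol. The submitters' processing notes name Bowtie2, edgeR and hg19 without versions, and the read counter and annotation are not given in the sources used here. No per-sample column was left out.

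Groups came from the sample titles. Counts of repeated symbols (286) were summed. Library sizes were corrected with TMM (edgeR 4.0.16, R 4.3.3). Fold changes used 0.5 reads as pseudocount and needed at least 10 reads in 1 of the 2 libraries. Intervals were 95% Clopper-Pearson (scipy 1.17.1), which limits precision by depth, and 3 reads was the floor. With 1 library per condition no test was run. "Called" means at least 2-fold. The procedure was tested on simulated Poisson counts, which hold no variation between cultures, so that test covers counting error alone. Alternatives were DESeq2 1.42.0 size factors, total counts, a pseudocount of 5, no filter, 50 reads, the control of the other arm, the most counted entry per symbol, and calls on whole intervals.

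Members were taken by symbol. Class members with at least 50 reads were given with all levels, and full statistics went to KIF11, KIF20A, KIF23, KIF2C, KIF4A, KIFC1, KIF5B, KIF1B, KIF3A and the 3 highest and 3 lowest members per arm. Of the other lists up to 4 genes were named by size of change, and a listed gene that this rule would name is not reported here. Members, classes and lists were chosen with earlier results of these data known. Positions and 3′ ends were from GENCODE 29 (GRCh38), promoters from RefSeq.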

Additional observations from a re-analysis of the deposited data

Results flagged for a closer look

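KIF24 moved in opposite directions in the 2 arms, with both counting intervals leaving out 1: its fold change was 1.35 in CDK4/6 KD against scrambled siRNA and 0.752 with PD0332991 against DMSO. Both directions turned when the controls of the arms were exchanged (0.884 in CDK4/6 KD against DMSO and 1.15 with PD0332991 against scrambled siRNA), and both of those intervals held 1. The difference between the arms was not tested, since each condition had 1 library. The KIF24 read counts were 127 with DMSO, 95 with PD0332991, 97 with scrambled siRNA and 139 in CDK4/6 KD, and the end of the gene overlaps UBAP1 on the opposite strand by 143 bases.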

How the results depend on the processing

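Medians and counts of both classes kept their direction, and stayed within counting error or 1.5 times the count, with DESeq2 size factors, a pseudocount of 5 reads, no filter, or the most counted entry of repeated symbols. The mitotic count at least 2-fold lower in CDK4/6 KD went from 5 to 2 both with whole intervals and with total counts, which shifted the median of all genes in that arm to 0.10 log2 units, and to 13 with DMSO as control. The transport count there went from 2 to 1 with whole intervals or a filter of 50 reads, which removes KIF5A. Exchanging the controls of the arms moved the CDK4/6 KD mitotic median from -0.81 to -1.49 and its distance from the transport median from -0.83 to -1.65, and moved the PD0332991 mitotic median from -2.93 to -2.04, the transport median from 0.17 to -0.091 and the distance from -3.10 to -1.95. Among the members given full statistics, the exchange also took 6 fold changes whose own interval left out 1 to the other side of 1. In CDK4/6 KD these were KIF1B (1.07), KIF3A (1.00), KIF7 (0.671) and KIF24 (0.884), and with PD0332991, KIF24 (1.15) and KIF1C (0.974). Of these, KIF7 alone then had an interval leaving out 1 (0.546 to 0.822), and KIF3A ended at no change. With PD0332991, KIF7 (from 0.848 to 1.93), KIF3A (from 1.18 to 0.731) and KIF1B (from 1.03 to 0.877), whose own intervals held 1, crossed 1 as well. The cause of the difference between the controls was not tested. No paired analysis was possible because each condition had 1 library. Depth limits KIF1A, KIF5A, KIF5C, KIF12, KIF17, KIF18A, KIF27 and KIF4B, which had 76 reads or fewer in every library.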
